A study of Mus musculus with 18 samples.

Results

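The axoneme of a cilium or a sperm tail bends through rows of dynein motors fixed to its microtubule doublets, and 40 mouse genes for these motors and for the proteins that anchor, regulate and build them were followed in Zfp541 knockout testes. The members were chosen by function, by a rule that uses no measured value, but with earlier results of these data known. There are 5 heavy chains of the outer arm, 9 heavy chains of the inner arms and 6 intermediate and light chains. The rest are 4 docking genes, 7 genes of the nexin-dynein regulatory complex and the axonemal ruler, and 9 assembly factors. The members are 40 of 47194 gene symbols present in the tables of all 18 libraries. RNA was measured by poly(A) RNA sequencing in male C57BL/6J mice that were either Zfp541-/- (KO) or Zfp541+/- (Het), so that the comparison animals also carried 1 mutant allele and no wild-type group was analysed here. Each genotype was sampled as testis at postnatal day 14 (P14), testis at postnatal day 18 (P18) and spermatocytes at P18, with 3 libraries in each of the 6 groups. Testis samples are labelled as testicular cells and hold somatic as well as germ cells. The sources used here do not say how the spermatocytes were isolated, nor whether the 3 biological replicates of a group came from separate animals, so the p-values measure the spread between these samples.

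In motile cilia the outer arm sets the beat frequency and the inner arms shape the bend. Heavy chains carry the motor, intermediate and light chains join it to the doublet, and the docking complex gives the outer arm its place. The nexin-dynein regulatory complex links neighbouring doublets and controls dynein, and CCDC39 with CCDC40 forms a molecular ruler that sets the axonemal repeat. Assembly factors work in the cytoplasm, with chaperones, where arms are put together before they enter the axoneme. Male germ cells transcribe much of the sperm tail programme in late meiotic prophase, before any flagellum has formed, and loss of many of these genes in mice or people causes immotile sperm, immotile cilia or both. ZFP541 is a zinc finger protein of pachytene spermatocytes. The study compared the genotypes before and after the first wave of germ cells reaches the later part of pachytene.

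Values are RPKM, reads per kilobase of gene length scaled to library size, for P14 testis and spermatocytes and FPKM, the same quantity named for fragments, for P18 testis, after rescaling within each set of 6 libraries. The libraries rest on 17.96 to 21.12 M reads for the P14 set, 12.81 to 16.95 M for the P18 testis set and 9.26 to 18.31 M for the spermatocyte set (M, megareads), as recovered from the size of the smallest step in the values. A level of 1 was reached by 14917 to 18584 genes in a library. Zfp541 itself was at 3.15, 3.93 and 5.05 in KO testes at P14, against 7.52, 9.23 and 9.22 in Het testes. It was at 11.3, 9.22 and 10.4 in KO testes at P18, against 29.8, 23.7 and 21.5 in Het testes. KO spermatocytes had 13.4, 11.8 and 11.5, against 41.3, 32.2 and 57.2 in Het spermatocytes. Every KO library was below every Het library of its set, and the labels do not say which exons the mutant allele lacks, so a remaining level does not test the genotype.

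Most of the dynein arm genes were much lower in KO than in Het at P18. Of the 40 members, 36 reached a level of 1 in at least 3 libraries of P18 testis and could be tested, and 35 of these fell in KO testes (limma, Benjamini-Hochberg adjusted p below 0.05 over all genes), where 16.9% of all genes tested fell. In spermatocytes 37 could be tested and 35 fell, where 25.3% of all genes tested fell. Some of them had to differ to be tested at all, since 7 in P18 testis and 8 in spermatocytes passed the level filter through the Het libraries alone. No member rose, where 6.54% of all genes rose in P18 testis and 9.34% in spermatocytes: at an unadjusted p below 0.05, limma gave 0 higher members in either set, and voom on recovered reads also called 0 higher, against 33 lower of 35 tested in P18 testis and 35 lower of 36 tested in spermatocytes. Fewer cells of a type and less RNA per cell cannot be told apart in these bulk samples.

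The libraries of KO lay wholly below those of Het for 36 of 36 members tested in P18 testis and 36 of 37 in spermatocytes. Over all genes tested this was so for 25.3% in P18 testis and 32.2% in spermatocytes. Counted over all 40 members, tested or not, it was so for 37 in P18 testis and 36 in spermatocytes. Dnah11, not tested in P18 testis, lay wholly above Het there. The log2 difference, KO minus Het on the scale of log2 of the level plus 0.5, was -2 or beyond for 18 called members in P18 testis (3.33% of all genes) and for 27 in spermatocytes (6.74% of all genes). Among the members tested, the median difference was -2.03 in P18 testis and -2.84 in spermatocytes, beside 0.04 and -0.05 over all genes. The 4 members outside the test in P18 testis were Dnah5, Dnah9, Dnah11 and Dnah3.

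At P14 these genes were mostly low in both genotypes, and 24 could be tested. One assembly factor, Zmynd10, fell in KO testes, which is 1 of 24 beside 0.17% of all genes tested. At an unadjusted p below 0.05 the count was 14 lower and 0 higher, and voom on recovered reads called 10 of 19 lower. The 14 include Zmynd10, Ccdc65 and Ccdc103, the 3 members that passed the level filter at P14 through the Het libraries alone. The libraries of KO lay wholly below those of Het for 16 of the 24 members tested, where 8.37% of all genes tested did so. Over all 40 members, tested or not, this was so for 25, while Dnah5 and Dnaic2, both too low for a test, lay wholly above Het. The median difference of the tested members was -0.45, beside 0.01 over all genes.

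**Figure D1:**
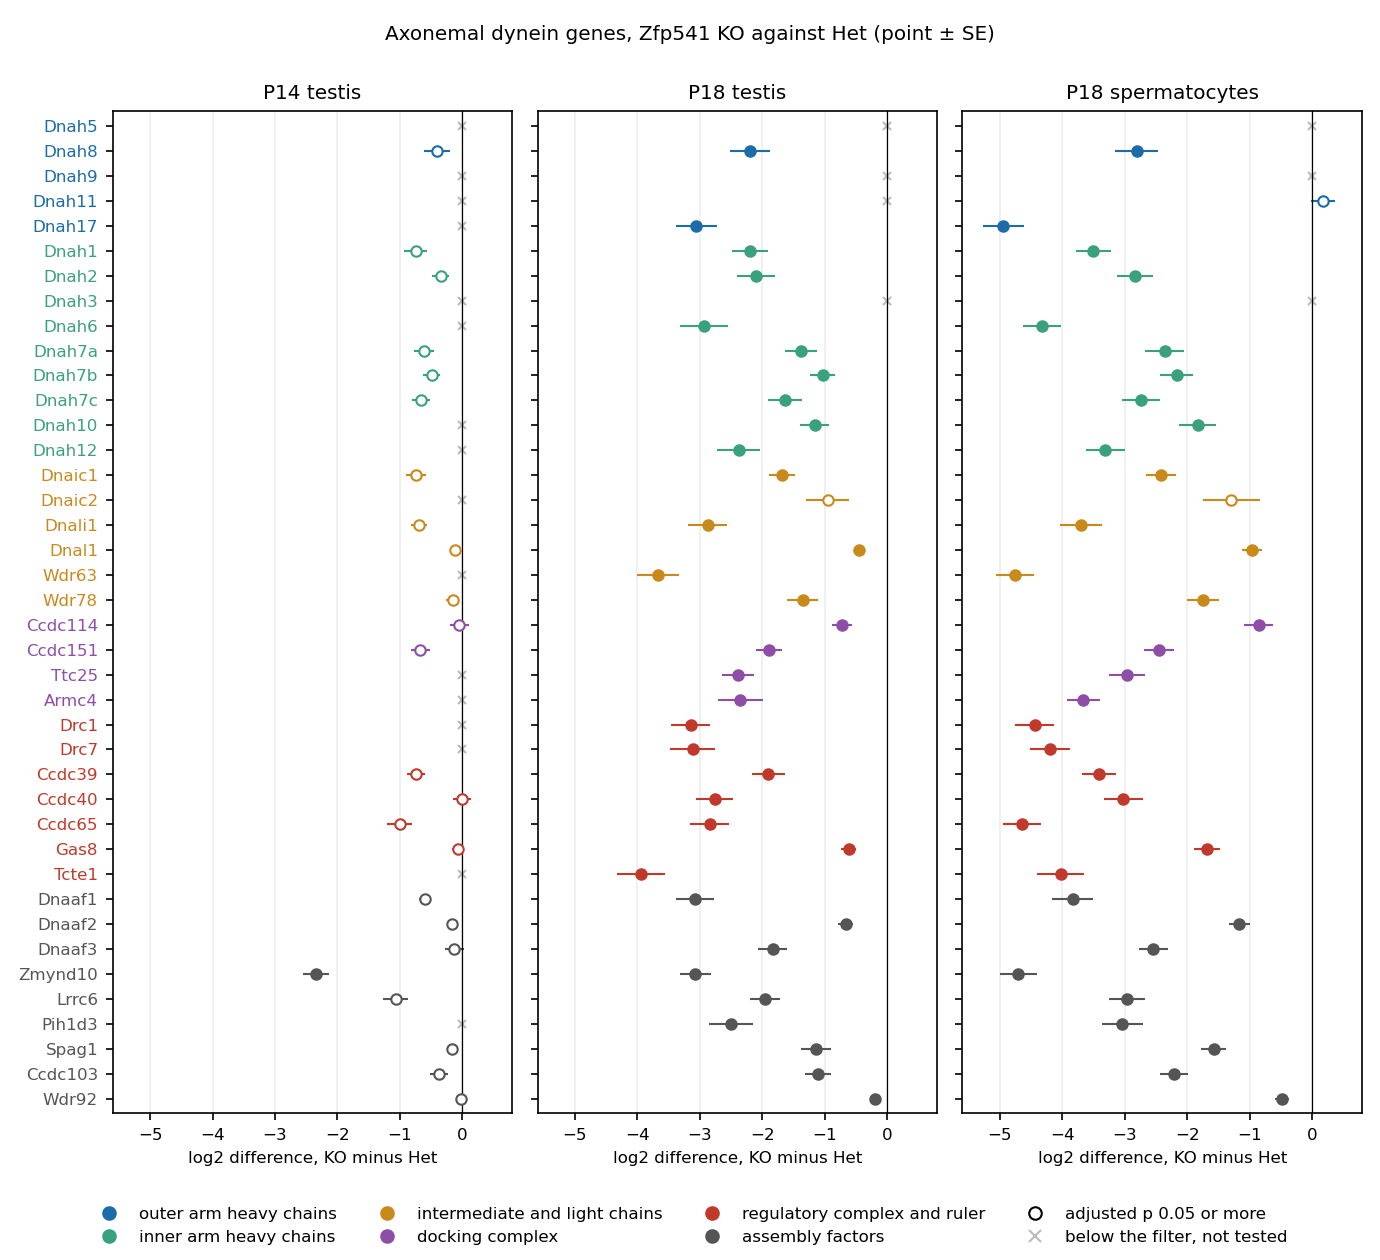
Log2 difference, KO minus Het, of each of the 40 members by role in P14 testis, P18 testis and P18 spermatocytes, with bars of 1 standard error from limma fits of 6 libraries. Filled points have an adjusted p below 0.05, open points do not, and grey crosses mark members below the level filter: 1 point is filled at P14 and 35 points are filled in each P18 set, all on the lower side.

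Promoters of 4 members are shown because they pair the assembly factor that passed the test at P14 (Zmynd10) with a regulatory complex gene that fell strongly (Drc1), the regulatory complex gene that fell least in P18 testis (Gas8) and the intermediate chain that fell most (Wdr63). Each run of 300 bases covers 250 bases before to 50 bases after the annotated gene start and is written 5′ to 3′ on the strand of the gene, from RefSeq on GRCm38.p6. Capitals mark letters of the X-box, the element bound by RFX factors (GTTGCC, or the longer GTTNCCNNG), or of the cyclic AMP response element bound by CREB and CREM (TGACGTCA), found on either strand. The windows are chr9:107547054-107547353 on the plus strand for Zmynd10, chr5:30281143-30281442 on the plus strand for Drc1, chr8:123518585-123518884 on the plus strand for Gas8 and chr3:146107987-146108286 on the minus strand for Wdr63.
Zmynd10: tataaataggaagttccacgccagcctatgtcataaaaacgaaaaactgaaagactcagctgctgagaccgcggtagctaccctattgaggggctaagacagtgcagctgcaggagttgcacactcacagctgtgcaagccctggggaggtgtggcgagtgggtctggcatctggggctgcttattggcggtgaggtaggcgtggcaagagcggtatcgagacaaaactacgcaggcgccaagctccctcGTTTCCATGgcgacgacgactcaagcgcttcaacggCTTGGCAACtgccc
Drc1: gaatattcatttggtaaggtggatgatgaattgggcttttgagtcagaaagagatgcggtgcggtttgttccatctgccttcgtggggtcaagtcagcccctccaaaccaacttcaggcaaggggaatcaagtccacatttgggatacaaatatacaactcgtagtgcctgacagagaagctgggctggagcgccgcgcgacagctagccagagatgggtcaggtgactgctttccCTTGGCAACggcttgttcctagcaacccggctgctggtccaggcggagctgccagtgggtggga
Gas8: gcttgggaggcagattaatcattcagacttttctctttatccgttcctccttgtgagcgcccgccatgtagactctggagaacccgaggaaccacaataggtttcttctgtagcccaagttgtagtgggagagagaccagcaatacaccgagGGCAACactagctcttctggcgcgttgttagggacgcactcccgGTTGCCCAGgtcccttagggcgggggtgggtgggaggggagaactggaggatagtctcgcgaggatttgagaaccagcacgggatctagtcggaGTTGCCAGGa
Wdr63: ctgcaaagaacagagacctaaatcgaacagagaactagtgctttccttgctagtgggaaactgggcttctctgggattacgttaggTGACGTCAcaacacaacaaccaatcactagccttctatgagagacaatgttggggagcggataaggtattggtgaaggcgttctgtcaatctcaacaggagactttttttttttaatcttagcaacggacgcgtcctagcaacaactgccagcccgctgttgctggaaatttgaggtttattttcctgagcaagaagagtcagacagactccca

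The Zmynd10 window holds GTTTCCATG at the start itself and CTTGGCAAC, the reverse of a GTTNCCNNG match, 36 bases after it. The Drc1 window holds CTTGGCAAC 14 bases before the start, and its last letters run into an AACGG, the core bound by MYB factors. AACGG on either strand also stands in the other windows shown. It lies 31 bases after the start in Zmynd10, 210 bases before it in Gas8 and 41 bases before it in Wdr63. The Gas8 window holds GGCAAC 98 bases before, GTTGCCCAG 54 bases before and GTTGCCAGG 40 bases after the start. The Wdr63 window holds no match to either X-box pattern and 1 TGACGTCA, 164 bases before the start.

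Windows were given for 31 of the 40 members. The others are Dnah3, Wdr78, Ttc25, Armc4, Tcte1, Dnaaf1, Lrrc6, Pih1d3 and Spag1. GTTGCC on either strand stood in 10 of the 31 windows (32.3%) and in 12.5% of all 32851 windows of the same length. The 10 include Dnah7a, Dnah7b and Dnah7c, whose windows share much of their sequence and so are not separate cases. The longer GTTNCCNNG stood in 13 (41.9%), against 16.6% of all windows, and the patterns overlap wherever the letter N after GTT is a G. AACGG stood in 16 windows (51.6%, against 17.4% of all) and AACTG, the other MYB core searched, in 20 (64.5%, against 44.8%). TGACGTCA stood in the windows of Dnah6 and Wdr63 only, 6.45% of the members' windows and 1.79% of all. A match of letters is a description and neither a binding site nor a cause, and no test was made of these shares.

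DNAH17 and DNAH8 are the outer arm heavy chains of the sperm tail, and both fell in both P18 sets. Dnah17 (GRCm38 chr11:118021723-118130634, minus strand) was at 0.431, 0.364 and 0.392 in KO testes at P14, against 0.754, 0.624 and 0.627 in Het testes, below the level for a test. KO testes at P18 had 1.29, 1.35 and 1.36, against 24.2, 14.9 and 8.82 in Het testes, a log2 difference of -3.06 ± 0.33 (SE, limma adjusted p = 0.00414). KO spermatocytes had 0.823, 0.911 and 1.19, against 39.0, 29.6 and 76.9 in Het spermatocytes (-4.95 ± 0.33, limma adjusted p = 0.000122). The KO libraries stayed near 1 in both P18 sets, and each Het library there lay above all of them.

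Dnah8 (chr17:30624354-30877365, plus strand) was the most abundant heavy chain. KO testes at P14 had 4.18, 4.77 and 6.86, against 7.72, 5.41 and 8.22 in Het testes, and the groups overlapped (-0.41 ± 0.21, limma adjusted p = 0.645). At P18 KO testes had 6.47, 7.33 and 6.45, against 52.6, 33.2 and 19.97 in Het testes (-2.20 ± 0.32, limma adjusted p = 0.00767). Dnah8 RNA was at 19.1% of the Het mean in P18 testis, more than the 8.34% of Dnah17. Spermatocytes had 9.85, 13.0 and 17.7 in KO, against 86.8, 63.2 and 157 in Het, which is 13.2% of the Het mean (-2.81 ± 0.34, limma adjusted p = 0.00109). Dnah5 and Dnah9, outer arm heavy chains of airway cilia, averaged 0.0325 ± 0.0282 and 0.186 ± 0.0445 in KO testes at P18, against 0.0351 ± 0.0218 and 0.236 ± 0.0362 in Het testes (SD, n = 3), and were not tested in any set. Dnah11, the other airway heavy chain, was at 0.569, 0.535 and 0.574 in KO testes at P18, against 0.447, 0.518 and 0.501 in Het testes. In spermatocytes its difference was 0.17 ± 0.20 (limma adjusted p = 0.528), the only member tested there with a value above 0.

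All 8 inner arm heavy chains that could be tested fell in both P18 sets. Dnah6 (chr6:73017606-73221651, minus strand), whose product is a motor of an inner arm, had the largest difference of the class in P18 testis. KO testes at P14 had 0.0250, 0.0471 and 0.0601, against 0.200, 0.0776 and 0.125 in Het testes, all below the level for a test. At P18 KO testes had 0.103, 0.0872 and 0.114, against 7.15, 4.37 and 2.12 in Het testes, which is 2.23% of the Het mean (-2.94 ± 0.39, limma adjusted p = 0.00582). KO spermatocytes had 0.106, 0.175 and 0.160, against 10.6, 8.69 and 20.9 in Het spermatocytes, or 1.10% (-4.32 ± 0.31, limma adjusted p = 0.000132). Dnah6 was at or below 0.175 in every KO library and passed the level filter at P18 through the Het libraries alone.

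Dnah7b (chr1:46066315-46373546, plus strand), 1 of 3 mouse genes for an inner arm heavy chain, had the smallest difference of the class in P18 testis, while Dnah10 had the smallest in spermatocytes (-1.83). Dnah7b was at 2.46, 2.50 and 3.26 in KO testes at P14, against 4.30, 3.42 and 4.43 in Het testes (-0.49 ± 0.13, limma adjusted p = 0.301). It was at 5.05, 4.67 and 4.44 in KO testes at P18, against 13.9, 9.87 and 7.64 in Het testes (-1.03 ± 0.20, limma adjusted p = 0.0183). KO spermatocytes had 2.64, 2.09 and 3.41, against 13.5, 9.84 and 19.5 in Het spermatocytes (-2.17 ± 0.26, limma adjusted p = 0.00102). Dnah7b differed by a smaller margin than Dnah6, and its P18 testis call ended when any 1 of the 3 KO libraries was left out. Dnah7a, Dnah7b and Dnah7c share 38.6%, 30.1% and 46.8% of their 50-base stretches with other genes, mostly with each other, so their separate values are uncertain. Across the 8 tested chains KO levels were 2.23% to 45.1% of Het in P18 testis and 1.10% to 21.2% in spermatocytes. Dnah3, the ninth, stayed at a mean of 0.0985 ± 0.0270 in KO testes at P18, against 0.199 ± 0.0466 in Het testes.

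Among intermediate and light chains 5 of 6 fell in each P18 set. Wdr63 (chr3:146040526-146108130, minus strand), which encodes an inner arm intermediate chain, was at 0.0857, 0.0471 and 0.128 in KO testes at P14, against 1.00, 0.483 and 0.924 in Het testes. KO testes at P18 had 0.676, 0.506 and 0.593, against 22.6, 12.8 and 8.15 in Het testes (-3.67 ± 0.34, limma adjusted p = 0.00358). KO spermatocytes had 0.330, 0.234 and 0.461, against 19.3, 15.7 and 36.0 in Het spermatocytes (-4.76 ± 0.30, limma adjusted p = 0.000115). Wdr63 in KO was at 10.8% of the Het mean at P14, where it was too low for a test, at 4.07% in P18 testis and at 1.44% in spermatocytes.

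Dnal1 (chr12:84114366-84147498, plus strand), a light chain of the outer arm, had the smallest difference of this class in each set. Its P14 levels in KO testes were 3.58, 4.02 and 4.12, against 4.28, 3.98 and 4.58 in Het testes, overlapping (-0.12 ± 0.08, limma adjusted p = 0.742). P18 testes of KO had 5.67, 5.65 and 5.46, against 8.66, 7.39 and 7.56 in Het testes, which is 71.1% of the Het mean (limma adjusted p = 0.0132). KO spermatocytes had 3.85, 3.38 and 3.67, against 7.26, 6.39 and 9.28 in Het spermatocytes, or 47.5% (-0.96 ± 0.16, limma adjusted p = 0.00341). Its Het libraries were also the closest together of these 6 genes in each set, and its P18 testis call ended without KO replicate 2. Dnaic2, an outer arm intermediate chain, did not pass the test in either P18 set: it was at 1.39, 1.05 and 1.39 in KO testes at P18, against 5.41, 2.28 and 1.95 in Het testes (limma adjusted p = 0.0894). KO spermatocytes had 0.342, 0.339 and 0.698, against 1.15, 1.03 and 4.42 in Het spermatocytes (-1.29, limma adjusted p = 0.0677), where 1 Het library stands far above the others. Its usual partner Dnaic1 fell (-1.69 in P18 testis and -2.42 in spermatocytes), as did the inner arm light intermediate chain Dnali1 (-2.88 and -3.70) and the inner arm intermediate chain Wdr78 (-1.35 and -1.75).

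All 4 docking genes fell in both P18 sets, and 2 of them were high enough at P14 for a test. Ttc25 (chr11:100545607-100572568, plus strand), a component of the docking complex, was at 0.454, 0.364 and 0.458 in KO testes at P14, against 0.863, 0.744 and 0.785 in Het testes. KO testes at P18 had 0.822, 1.03 and 1.18, against 10.9, 6.72 and 5.46 in Het testes (-2.39 ± 0.25, limma adjusted p = 0.004). KO spermatocytes had 1.03, 0.922 and 0.983, against 10.2, 7.38 and 17.5 in Het spermatocytes (-2.96 ± 0.29, limma adjusted p = 0.000388). The Ttc25 groups did not overlap in any set.

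Ccdc114 (chr7:45924072-45948963, plus strand), which forms the docking complex of outer arms in cilia, differed least of the 4. KO testes at P14 had 1.09, 1.12 and 1.47, against 1.43, 1.02 and 1.42 in Het testes, with no separation (-0.05 ± 0.15, limma adjusted p = 0.954). At P18 KO testes had 1.77, 2.34 and 2.28, against 4.63, 3.60 and 3.34 in Het testes (-0.72 ± 0.16, limma adjusted p = 0.0231). KO spermatocytes had 1.66, 1.95 and 1.91, against 3.19, 2.92 and 5.46 in Het spermatocytes (-0.86 ± 0.23, limma adjusted p = 0.0261). Both Ccdc114 calls depended on the libraries: the one in P18 testis ended without Het replicate 2 or when any 1 KO library was left out, and the one in spermatocytes when any 1 KO library was left out or with no level filter. Ccdc151, which is needed for docking of outer arms, fell by 1.89 on the log2 scale in P18 testis and by 2.45 in spermatocytes. Armc4, another docking factor, was almost absent from KO spermatocytes, with 0.0380, 0.0627 and 0.113, against 6.69, 4.67 and 9.71 in Het spermatocytes. Those levels correspond to 2 to 7 recovered reads in a KO library and 179 to 623 in a Het library.

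By median, the regulatory complex and the ruler had the lowest KO levels relative to Het of the 6 classes at P18. The median over the 7 genes was 9.94% of Het in P18 testis and 3.02% in spermatocytes, and all 7 fell in both sets. Of the 7, 2 in P18 testis and 3 in spermatocytes passed the level filter through the Het libraries alone, which favours low percentages. By summed level, the outer arm heavy chains were lower relative to Het than this class in P18 testis. Tcte1 (chr17:45523434-45542680, plus strand), the DRC5 subunit, had the largest difference of any member in P18 testis. At P14 KO testes had 0.292, 0.372 and 0.294, against 0.406, 0.446 and 0.304 in Het testes, where the groups overlapped at a low level. At P18 KO testes had 0.376, 0.244 and 0.295, against 21.1, 11.6 and 6.68 in Het testes (-3.94 ± 0.38, limma adjusted p = 0.00358). KO spermatocytes had 0.533, 0.363 and 0.367, against 11.3, 9.45 and 27.9 in Het spermatocytes (-4.02 ± 0.38, limma adjusted p = 0.000343). Tcte1 in KO testes was thus low at both ages, while the Het testes were high at P18 only. Of its 50-base stretches, 22.5% also occur in Tmem151b, which overlaps it on the opposite strand, and whether reads were counted by strand is not stated.

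Gas8 (chr8:123518834-123536650, plus strand), the DRC4 subunit, changed least of this class in both P18 sets. Its levels at P14 were, in KO testes, 4.41, 4.77 and 5.46, against 5.20, 5.08 and 5.18 in Het testes (-0.08 ± 0.09, limma adjusted p = 0.841). Its levels at P18 were, in KO testes, 6.403, 6.96 and 6.75, against 12.6, 9.27 and 10.03 in Het testes (-0.62 ± 0.12, limma adjusted p = 0.0157). KO spermatocytes had 2.72, 2.57 and 3.23, against 9.70, 7.91 and 13.7 in Het spermatocytes (-1.68 ± 0.20, limma adjusted p = 0.000958). Gas8 was thus at 63.1% of the Het mean in P18 testis and at 27.2% in spermatocytes, and its P18 testis call ended without KO replicate 1 or KO replicate 2. The other complex genes changed more: Drc1 averaged 1.05 ± 0.222 in KO testes at P18, against 13.97 ± 5.88 in Het testes, and Drc7 averaged 0.411 ± 0.135, against 7.97 ± 4.02 (SD, n = 3). Ccdc65, the DRC2 subunit, averaged 1.76 ± 0.560 in KO spermatocytes, against 58.2 ± 25.1 in Het spermatocytes. The ruler genes Ccdc39 and Ccdc40 fell together, by 1.91 and 2.77 on the log2 scale in P18 testis and by 3.41 and 3.02 in spermatocytes.

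All 9 assembly factors fell in both P18 sets, and the class held both the most abundant members and the most even one. Zmynd10 (chr9:107547298-107551319, plus strand), needed for preassembly of outer and inner arms, was the only member to pass the test at P14. KO testes at P14 had 0.666, 0.440 and 0.748, against 6.81, 3.84 and 5.12 in Het testes, or 11.8% of the Het mean (-2.34 ± 0.21, limma adjusted p = 0.0207). It passed the level filter there through the Het libraries alone, and the call ended with no filter, with the replicate number as a block, and without Het replicate 1 or 3 or KO replicate 1 or 2 (log2 difference -3.07 to -1.93 over all alternatives, adjusted p 0.000747 to 0.191). At P18 KO testes had 6.24, 6.59 and 6.45, against 84.1, 55.7 and 40.9 in Het testes (-3.07 ± 0.24, limma adjusted p = 0.00356). KO spermatocytes had 3.04, 3.31 and 4.46, against 89.8, 76.6 and 171 in Het spermatocytes (-4.71 ± 0.30, limma adjusted p = 0.000115). Zmynd10 libraries of the genotypes were apart in every set, and its KO levels in P18 testis lay within the range of its Het levels at P14, in tables that were normalized separately.

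Dnaaf1 (chr8:119575235-119598454, plus strand), a leucine-rich repeat assembly factor, was the most abundant member in Het at P18. KO testes at P14 had 3.54, 3.76 and 4.14, against 5.91, 5.63 and 6.62 in Het testes, apart but short of the threshold (-0.60 ± 0.09, limma adjusted p = 0.0692). KO testes at P18 had 8.90, 8.27 and 8.48, against 119, 75.5 and 47.9 in Het testes (-3.07 ± 0.30, limma adjusted p = 0.0037). KO spermatocytes had 10.2, 6.37 and 9.18, against 109, 88.2 and 211 in Het spermatocytes (-3.83 ± 0.33, limma adjusted p = 0.000248). Dnaaf1 shares 19.3% of its 50-base stretches with Taf1c on the opposite strand.

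Wdr92 (chr11:17182107-17233796, plus strand), a partner of a prefoldin-like chaperone complex that many cells use, was the member with the smallest differences among those that fell. P14 values in KO testes were 13.9, 13.9 and 13.1, against 13.1, 14.1 and 14.4 in Het testes (-0.02 ± 0.06, limma adjusted p = 0.945). In P18 testis the KO values were 17.8, 18.4 and 18.5, against 21.9, 20.7 and 20.2 in Het testes (-0.20 ± 0.06, limma adjusted p = 0.0499, and 0.0356 to 0.161 over the alternatives, 13 of 16 of which end the call). KO spermatocytes had 11.4, 13.4 and 11.4, against 17.5, 15.3 and 18.3 in Het spermatocytes (-0.48 ± 0.12, limma adjusted p = 0.0168), a call that ended with the values as deposited and when Het replicate 1 or either of KO replicates 1 and 3 was left out. Wdr92 levels ran only from 11.4 to 21.9 over all 18 libraries. Of its 50-base stretches, 16.6% also occur in Ppp3r1, which overlaps it on the same strand. Dnaaf2, a PIH domain assembly factor, had a mean of 10.6 ± 0.235 in KO testes at P18, against 17.3 ± 2.95 in Het testes, and of 8.96 ± 0.766 in KO spermatocytes, against 21.1 ± 5.15 in Het spermatocytes (SD, n = 3). It fell in both sets, by 0.67 and 1.17 on the log2 scale, and 68.1% of its 50-base stretches are shared with overlapping gene models. Pih1d3, another PIH domain factor, was nearly absent from KO spermatocytes, with 0.215, 0.118 and 0, against 3.92, 3.03 and 7.37 in Het spermatocytes (0 to 4 recovered reads, against 41 to 167). Dnaaf3 fell by 1.84 and 2.54 on the log2 scale in P18 testis and spermatocytes, Lrrc6 by 1.96 and 2.96, Spag1 by 1.14 and 1.58, and Ccdc103, which helps attach dynein to the axoneme, by 1.11 and 2.21.

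**Figure D2:**
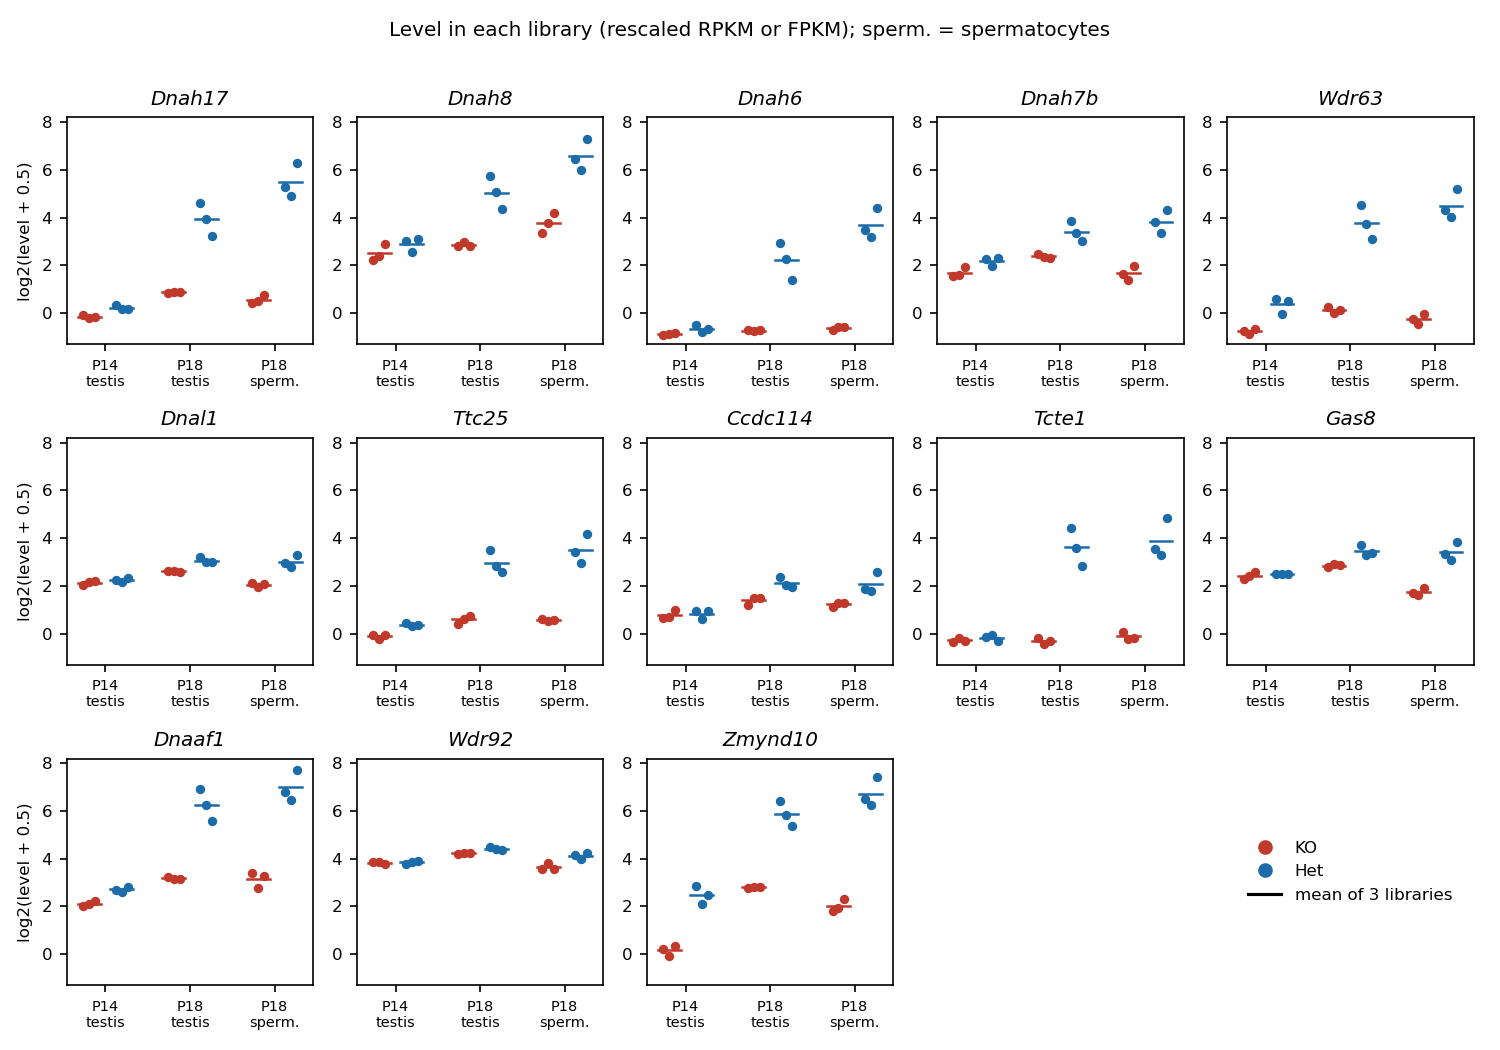
Levels of 13 members in each library as log2 of the rescaled RPKM or FPKM plus 0.5, with KO in red to the left of Het in blue in each of P14 testis, P18 testis and P18 spermatocytes, and lines at the mean of the 3 log2 values. KO points stay close together at P18 while Het points spread upward, as for Tcte1, with 0.244 to 0.376 in KO testes and 6.68 to 21.1 in Het testes.

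At P18 the Het libraries lay farther apart in level than the KO libraries for most members. By the ratio of highest to lowest library, some members spread more in KO spermatocytes. Examples are Armc4 (2.98, against 2.08 in Het spermatocytes) and Ccdc103 (1.82, against 1.57). In P18 testis Het replicate 1 was the highest Het library for 36 of the 36 members at a mean of 1 or more, and Het replicate 3 was the lowest for 34. In spermatocytes Het replicate 3 was the highest for 36 of 36 and Het replicate 2 the lowest for 35. The summed level of the 40 members was 121 to 123 in KO testes at P18, against 361 to 777 in Het testes. It was 98.3 to 116 in KO spermatocytes, against 668 to 1491 in Het spermatocytes, and 65.2 to 75.5 in KO testes at P14, against 86.9 to 105 in Het testes. Without the highest Het library 34 members fell in P18 testis and 35 in spermatocytes. Leaving out KO replicate 2 left 23 members called lower in P18 testis. The 12 calls of P18 testis that ended without at least 1 library were those of Dnah7a, Dnah7b, Dnah7c, Dnah10, Dnal1, Wdr78, Ccdc114, Gas8, Dnaaf2, Spag1, Ccdc103 and Wdr92, and in spermatocytes 33 of the 35 calls held under every alternative.

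The summed level of 10 markers of late pachytene and diplotene spermatocytes moved with the members. It was 51.4 to 78.5 in KO testes of the P14 set, against 110 to 147 in its Het testes. At P18 it was 182 to 199 in KO testes, against 647 to 1403 in Het testes, and 163 to 214 in KO spermatocytes, against 1287 to 2745 in Het spermatocytes. In both P18 sets the same Het library was highest for the markers and for the members, and 9 of 10 markers fell in P18 testis (median -2.81) and 9 of 9 in spermatocytes (median -4.45). Of 10 markers of leptotene to zygotene spermatocytes, 2 fell and 2 rose in each P18 set, with medians of -0.17 in P18 testis and 0.01 in spermatocytes. At P14 their median was -0.27, limma called 0 of them (3 lower and 0 higher at an unadjusted p below 0.05, 0 by voom), and their summed level in KO testes was 80.3% of that in Het testes. The part of these stages in the members' differences was not tested.

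**Figure D3:**
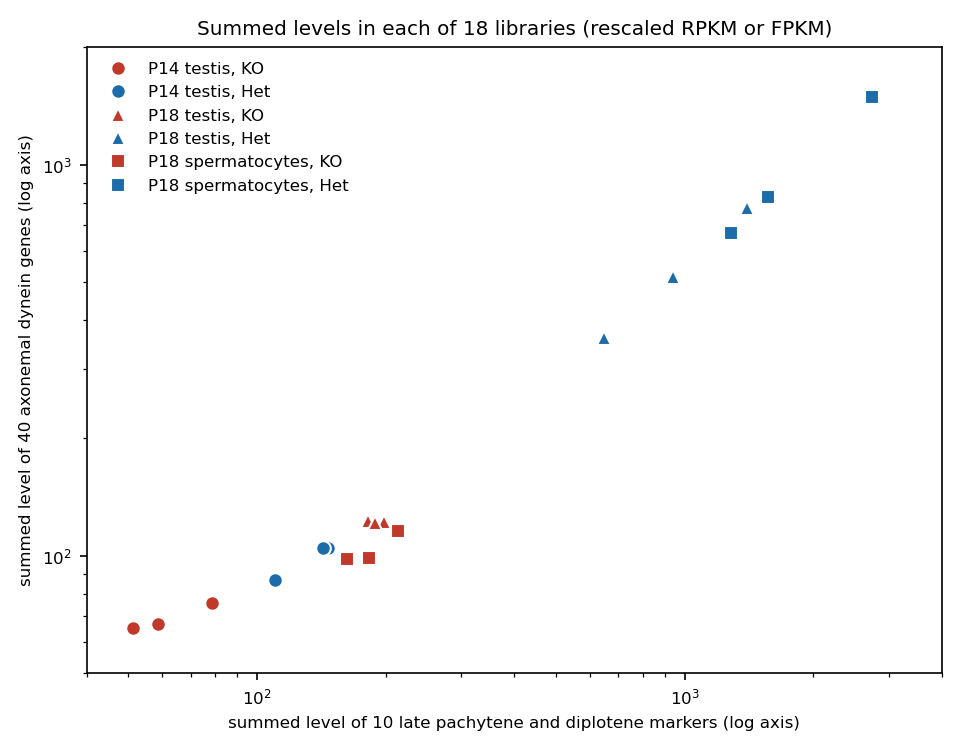
Summed level of the 40 members against the summed level of 10 late pachytene and diplotene markers, both as RPKM or FPKM on log axes, with 1 point for each of the 18 libraries. KO libraries of P18 lie at 98.3 to 123 on the member axis and 163 to 214 on the marker axis, and Het libraries of P18 at 361 to 1491 and 647 to 2745.

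Round spermatid markers were low but also lower in KO, with a summed level of 6.50 to 7.73 in KO testes at P18, against 17.2 to 34.0 in Het testes, and of 5.51 to 6.35 in KO spermatocytes, against 27.3 to 55.0 in Het spermatocytes. Of the 10 markers, 2 of 3 tested fell in P18 testis and 3 of 5 in spermatocytes. Macrophage markers summed to 59.9 to 69.2 in KO testes at P18, against 38.3 to 48.02 in Het testes, with 5 of 6 higher, and to 12.02 to 13.1 in KO spermatocytes, against 6.42 to 11.3 in Het spermatocytes, with 1 of 4 tested higher. Spermatogonial markers summed to 289 to 323 in KO testes at P18, against 207 to 265 in Het testes, with 4 of 10 higher, and to 501 to 587 in KO spermatocytes, against 283 to 384 in Het spermatocytes, with 6 of 10 higher. Sertoli markers summed to 1329 to 1410 in KO testes at P18, against 1022 to 1269 in Het testes, with 3 of 15 higher. In the spermatocyte samples they summed to 62.2 to 98.1 in KO and 78.7 to 111 in Het, far below whole testis, while peritubular myoid markers remained at 55.4 to 191 in KO and 67.8 to 180 in Het. The part of these cells in the members' differences was not tested. Multiciliated cells of the efferent ducts also carry dynein arms: their 7 markers summed to 4.02 to 4.40 in KO testes at P18, against 6.80 to 7.69 in Het testes, and to 6.73 to 8.70 in KO spermatocytes, against 8.002 to 10.1 in Het spermatocytes. Of their defining genes, Sntn was at 0 in 17 of 18 libraries, and the highest levels were 0.0921 for Gmnc and 0.398 for Mcidas. Of the 7 markers, 3 could be tested in P18 testis and 4 in spermatocytes, and Deup1, a factor of centriole amplification, was the 1 that fell in each (-1.55 and -1.53).

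Between P14 and P18 the members rose in Het testes. Age comparisons could hold the 32 members whose gene model length matched between the tables of both ages, and 28 of these were tested, with the caution that the tables of the ages were normalized separately. All 28 rose in Het testes (29.4% of all genes did), with a median log2 difference of 1.98, P18 minus P14. Some of them had to be higher in Het testes at P18 to be tested at all. Tcte1, Dnah6, Drc7 and Pih1d3 were below 1 in every P14 library and every KO library of P18 testis. They passed the level filter through the P18 Het libraries alone. Wdr63, Dnah10 and Ttc25 reached a level of 1 in too few other libraries to pass without them. In KO testes 11 of 28 passed the test, all of them higher at P18, with a median of 0.54. Of all 16242 genes tested there, 2929 were higher in KO testes at P18, and 43.8% passed in either direction. Without Het replicate 1 of P18 testis, which shares the fit, the KO count was 19, and without KO replicate 3 it was 7. The KO values ran from -0.13 for Tcte1 to 2.44 for Zmynd10. Those that rose in KO testes were Zmynd10, Dnaic1 (1.15), Dnaic2 (1.12), Lrrc6 (1.02), Drc1 (1.01), Dnah17 (0.87), Ccdc151 (0.83), Dnaaf1 (0.82), Ccdc39 (0.71), Ccdc103 (0.71) and Dnaaf2 (0.33).

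The difference of the differences, KO minus Het at P18 minus the same at P14, was below 0 and past the threshold for 15 of 28 members, where 5.63% of all genes were. Tcte1 had the largest value (-3.77, limma adjusted p = 0.00286), followed by Dnah17 (-2.65 ± 0.39, limma adjusted p = 0.00649), Dnah6 (-2.62) and Dnaaf1 (-2.48). The other 11 were Dnah2, Dnah10, Dnali1, Wdr63, Wdr78, Ccdc151, Ttc25, Drc1, Drc7, Dnaaf3 and Pih1d3. Of the 15, Tcte1, Dnah6, Drc7 and Pih1d3 passed the level filter through the P18 Het libraries alone, which favours such a difference. Wdr63, Dnah10 and Ttc25 would also not have passed the filter without the P18 Het libraries. Zmynd10 was not among the 15 (-0.70, limma adjusted p = 0.29): it was apart at both ages and rose in both genotypes. The count was 10 to 24 when single libraries were left out, 24 without Het replicate 3 of P18 testis, 8 with the replicate number as a block and 5 with voom on recovered reads.

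Spermatocytes were set against whole testis at P18 in each genotype. In Het 21 of 37 members were higher in spermatocytes than in testis and 0 were lower, while 27.1% of all genes were higher and 31.8% lower. Those with the largest log2 differences, spermatocytes minus testis, were the heavy chains Dnah17 (1.66), Dnah8 (1.62), Dnah12 (1.59), Dnah6 (1.58) and Dnah1 (1.56). In KO spermatocytes Dnah8 (0.98) and Dnah11 (0.64) were higher than in KO testes, while 22.9% of all genes were higher. In the same comparison 6 members were lower, where 38.7% of all genes were: Gas8 (-1.06), Ccdc39 (-0.77), Ccdc103 (-0.74), Dnah7b (-0.66), Wdr92 (-0.51) and Dnal1 (-0.50). The Het count of 21 rested on single libraries and was 11 to 29 when 1 was left out, 11 without Het testis replicate 3 and 12 without Het spermatocyte replicate 3.

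The difference between genotypes was not shown to differ between spermatocytes and testis for any member. No member passed the test of that difference (limma), where 1.23% of all genes were lower, and 20 were lower and 0 higher at an unadjusted p below 0.05, while voom on recovered reads called 1 lower. The median was -0.79, and values ran from -1.94 to 0.08. The smallest adjusted p belonged to Gas8 (-1.10, limma adjusted p = 0.0585).

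**Figure D4:**
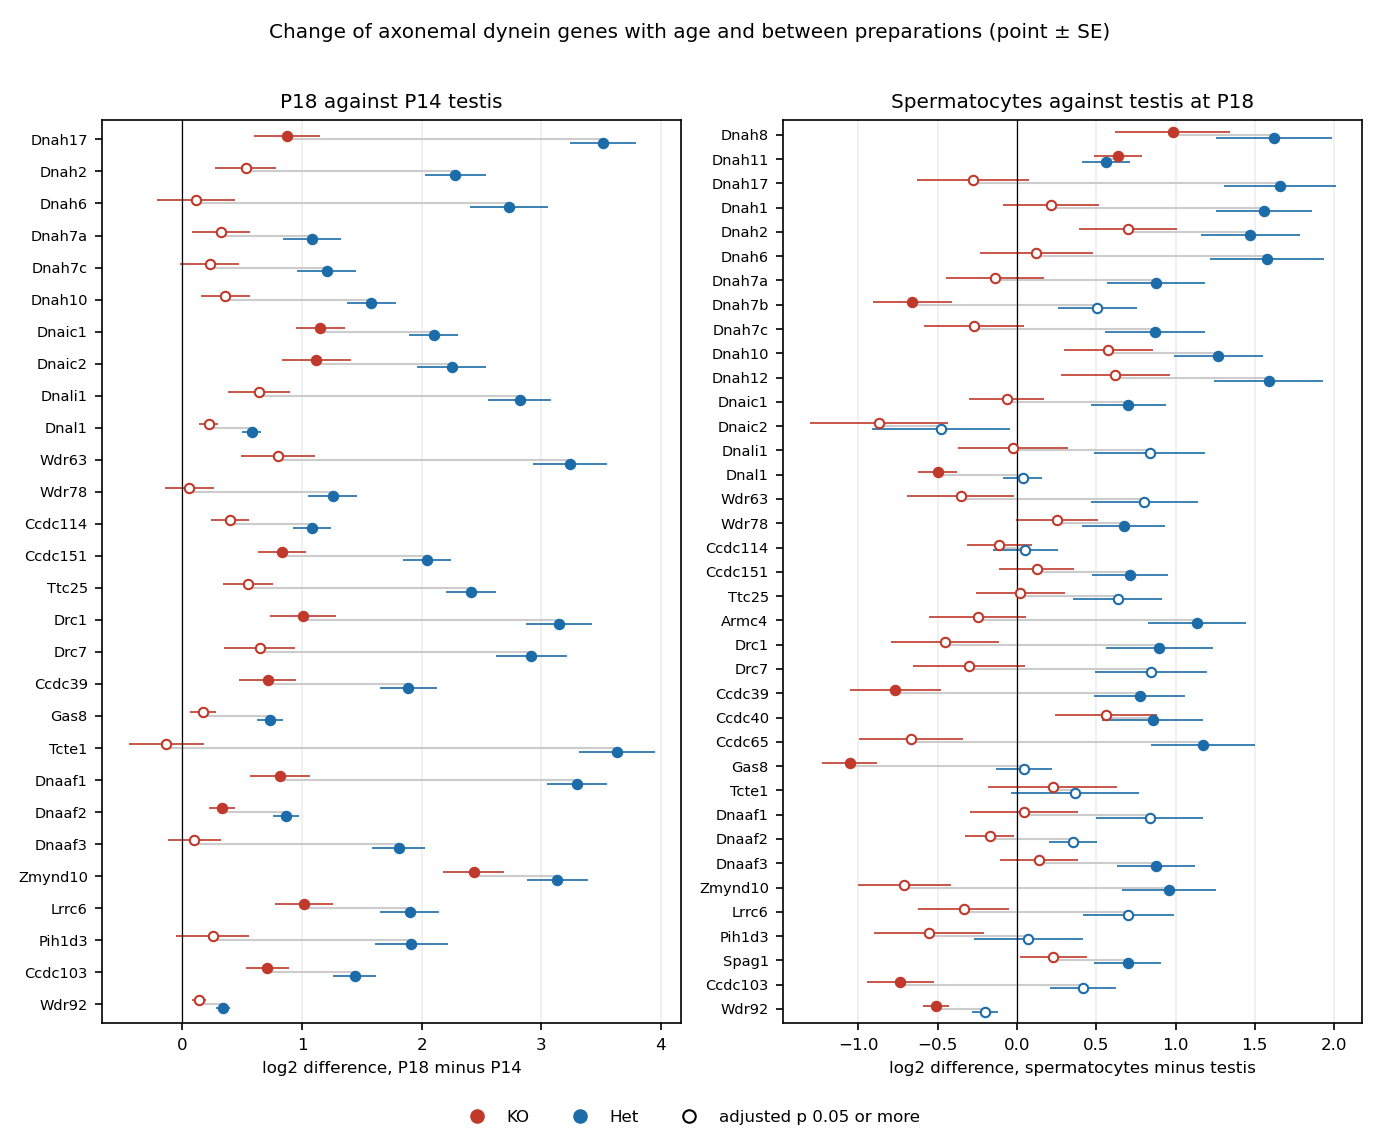
Log2 difference of each member tested, P18 minus P14 testis and spermatocytes minus testis at P18, in KO and in Het, with bars of 1 standard error from limma fits of 12 libraries. For P18 minus P14, the Het points lie higher (median 1.98) than the KO points (median 0.54), which lie between -0.13 and 2.44.

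Other genes of the axonemal dynein system, 27 that are not members, also fell at P18. In P18 testis 19 of 21 tested fell, with a median of -0.96, and in spermatocytes 20 of 21 fell, with a median of -1.58, where 16.9% and 25.3% of all genes fell. A difference of -2 or beyond was reached by 5 in P18 testis and by 7 in spermatocytes, and the difference from the members was not tested. At P14 limma called 0 of 16 (9 lower at an unadjusted p below 0.05, 1 by voom). Those with the largest differences were Nme8, an outer arm light chain with a thioredoxin domain (-3.06), and Daw1, which assists outer arm transport (-2.74), in P18 testis, and Daw1 (-3.77) and Iqcd, a subunit of the regulatory complex (-3.75), in spermatocytes. Nme8 was at 0, 0.0890 and 0.0291 in KO testes at P18, against 6.61, 3.65 and 2.53 in Het testes. The 15 genes listed as chains of the cytoplasmic dyneins moved both ways. In P18 testis 8 fell and 2 rose, with the largest values for Dynlrb2 (-2.73) and Dynlt1b (-1.27) and, among those that rose, Dynlt3 (0.38) and Dynlrb1 (0.32). In spermatocytes 9 fell and 2 rose, led by Dynlrb2 (-4.28), Dynlt1b (-1.81), Dynll2 (0.67) and Dynlrb1 (0.53). At P14 limma called 0 of them, with 7 at an unadjusted p below 0.05 and 1 by voom.

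Of 11 transcription factors of ciliated or meiotic cells, 9 were tested in P18 testis, where 6 fell and 2 rose, and 10 in spermatocytes, where 6 fell and 1 rose. Over all genes tested, 16.9% fell and 6.54% rose in P18 testis, and 25.3% fell and 9.34% rose in spermatocytes. Rfx4 (-1.92 in P18 testis and -3.11 in spermatocytes) and Rfx2 (-1.50 and -2.06), whose family binds the X-box, had the largest falls. Rfx1, of the same family, rose (0.38 and 0.42), and so did Taf7l, a germ cell subunit of the general transcription machinery (0.33 in P18 testis). Foxj1, the master regulator of motile cilia, was at 0.523, 0.550 and 0.432 in KO testes at P18, against 1.12, 0.805 and 1.23 in Het testes. It was too low for a test there. In spermatocytes Foxj1 was tested and was called neither lower nor higher. Its genotype difference was higher in spermatocytes than in testis by 1.00 on the log2 scale, which did not pass with limma. This was the largest such value of the 10 factors tested, 1 of which voom on recovered reads called higher. Voom also called 1 of the 4 multiciliated markers tested higher in this difference, and Foxj1 is the only gene on both lists. At P14 limma called 0 of the 8 factors tested, with 4 at an unadjusted p below 0.05 and 1 by voom.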

How the data were processed

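Poly(A) RNA of P14 testis, P18 testis and P18 spermatocytes of Zfp541 KO and Het mice was measured in 18 libraries. The authors deposited FPKM values for the P18 testis set and RPKM values for both other sets, per the file headers, in 1 table of gene symbols a library. Per the submitters' processing notes, the GRCm38 build was used, with STAR 2.6.1a and featureCounts among the tools beside edgeR 3.28.1 and CASAVA 1.9; their roles and a strand setting are not given in the sources used here. Whole reads were recovered with merged exon lengths of the GRCm38 annotation supplied (91.5% to 98.9% of low values whole within 0.02) and served for totals, the check of gene lengths and voom. Totals of 9.26 to 21.12 M (megareads) put 1 read on 1 kilobase at 0.0473 to 0.108, which limits values near that level.

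Symbols shared by more than 1 gene were dropped (95 at P14, 107 at P18) and older symbols renamed (442 and 364). Rescaling within each fit used trimmed means of M values (trims of 30% and 5%), and genes at 1 or more in at least 3 libraries of a fit were tested with limma 3.58.1 (trend and robust moderation, R 4.3.3) on log2 of the rescaled deposited value plus 0.5, a scale that understates changes of low genes. Two-sided p-values were Benjamini-Hochberg adjusted within each of 9 comparisons over all genes, with a threshold of 0.05. Each KO comparison used its 6 libraries, and comparisons across ages or fractions used 12. Python 3.11.15, numpy 2.4.6, pandas 2.3.3 and matplotlib 3.10.9 did the rest, and the fitting code was checked on simulated data. In each role, all values are printed for the member with the largest and with the smallest P18 testis difference, and for a member that passed at P14; from the other lists, up to 2 genes a direction are named by size, plus Zfp541, cell type markers and Foxj1, which was chosen after its values were seen. The members and lists were chosen with earlier results of these data known. Same-numbered replicates were not treated as pairs. Alternatives were other scalings, pseudocounts, filters, moderation, voom, a replicate block, 1 fit over 18 libraries and leaving out each library. RefSeq windows served for motifs, and transcripts of the annotation for shared 50-base stretches.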

Additional observations from a re-analysis of the deposited data

Results flagged for a closer look

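For 15 members the KO minus Het difference itself differed between P18 and P14 testis by the interaction test (limma on 12 libraries, adjusted p below 0.05 over all genes, where 5.63% of all genes were lower). Each value is the log2 difference at P18 minus that at P14, and all lie below 0. Among heavy chains, Dnah17 was at -2.645, Dnah6 at -2.619, Dnah2 at -1.753 and Dnah10 at -1.221. Among intermediate and light chains, Wdr63 was at -2.438, Dnali1 at -2.178 and Wdr78 at -1.202. The docking genes Ttc25 and Ccdc151 were at -1.864 and -1.211. In the regulatory complex, Tcte1 was at -3.766, Drc7 at -2.272 and Drc1 at -2.14. Among assembly factors, Dnaaf1 was at -2.483, Dnaaf3 at -1.71 and Pih1d3 at -1.662, the last with an adjusted p of 0.0495. The P14 and P18 tables were normalized separately, and several of these genes, such as Tcte1, Wdr63 and Dnah6, were below 1 in every KO library at both ages. Of the 15, Tcte1, Dnah6, Drc7 and Pih1d3 passed the level filter through the Het libraries of P18 testis alone. Wdr63, Dnah10 and Ttc25 would also not have passed without those Het libraries. Groups of 3 libraries were not screened for outlying samples.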

How the results depend on the processing

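The lower count of members in spermatocytes stayed within 1.5 times of 35 under every alternative. In P14 testis 1 member was lower; the count was 0 with no filter, 0 with a filter of 5, 10 with voom on recovered reads, and 0 to 2 when single libraries were left out. In P18 testis (35) it was 23 to 36 when single libraries were left out, 23 without KO replicate 2 and 26 without KO replicate 1. The age interaction (15) gave 5 with voom and 10 to 24 leaving out libraries, 24 without Het replicate 3 of P18 testis. From P14 to P18 the lower Het count (0) became 1 with no filter and 1 in 1 fit over 18 libraries, and the higher KO count (11) became 22 as deposited, 7 over 18 libraries, and 7 to 19 leaving out libraries (19 without Het replicate 1, 17 without Het replicate 3 and 7 without KO replicate 3 of P18 testis). For the fraction interaction (0 lower) the count was 1 with a pseudocount of 0.1, 1 with a filter of 5, 1 with voom, and 0 to 1 leaving out libraries (1 without Het spermatocyte replicate 3). Spermatocytes against testis in Het gave 0 lower, 1 as deposited, 1 with no filter, 1 over 18 libraries and 0 to 2 leaving out libraries, and 21 higher, 11 to 29 leaving out libraries (13 without Het testis replicate 2). In KO it gave 6 lower, 3 with median-of-ratios scaling, and 2 higher, 1 with no filter, 1 with a filter of 5, 4 over 18 libraries and 1 to 5 leaving out libraries. With the replicate number as a block, the lower count was 0 at P14 and 8 for the age interaction. It was 3 for the fraction interaction and 10 for spermatocytes against testis in KO. The labels do not say whether same-numbered samples are pairs. Same-number correlations were 0.085, 0.084 and 0.104 at P14 and 0.026, -0.013 and -0.028 in P18 testis. In spermatocytes they were 0.242, 0.054 and 0.096. Each KO library of P14 and of spermatocytes correlated best with its own number, and a pairing is therefore not excluded.

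These log2 values changed sign, the cause was not tested, and none of those results was called. At P14 Ccdc40 was 0.001 with a pseudocount of 0.1 and 0.007 over 18 libraries, and leaving out libraries gave -0.128 to 0.082 for Ccdc40, -0.174 to 0.018 for Ccdc114, -0.215 to 0.02 for Dnaaf3 and -0.045 to 0.013 for Wdr92. For the fraction interaction Tcte1 was 0.106 with voom, 0.041 with a pseudocount of 0.1 and 0.033 as deposited, with -0.503 to 0.342 leaving out libraries, and Ccdc114 ran from -0.288 to 0.101. For spermatocytes against testis in Het, Dnal1 was -0.124 as deposited and -0.017 over 18 libraries (-0.117 to 0.14 leaving out libraries), Ccdc114 was -0.102 as deposited (-0.213 to 0.193), Gas8 was -0.12 as deposited and -0.011 over 18 libraries (-0.178 to 0.207), and Tcte1 ran from -0.114 to 0.728. In KO, Ccdc114 was 0.049 with median-of-ratios scaling (-0.216 to 0.04 leaving out libraries), Ttc25 ran from -0.074 to 0.147 and Dnaaf1 from -0.073 to 0.239. With values as deposited, the median of all genes moved to 0.12 in P18 testis and 0.17 in spermatocytes, and lower calls made up 53.6% and 45.7% of all calls, against 72.1% and 73.1% after rescaling. Depth limits the lowest values: in spermatocytes, Armc4 rests on 2 to 7 reads and Pih1d3 on 0 to 4 reads in a KO library.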
